A study of Mus musculus with 12 samples.

Results

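The genes described here encode splicing regulators and have listed splicing events of their own in cells treated to delete Prmt5. The 10 genes were the SR-protein kinases Clk2 and Clk4, the kinase-partner cyclin Ccnl2, the SR protein Srsf3, the U1-associated factors Luc7l, Luc7l3 and Prpf40b, the 5′ splice site factor Tia1, the 3′ splice site factor U2af1l4 and the splicing repressor Ptbp1. They were selected on their inclusion levels, as splicing regulators whose own RNA had an event in the authors' deposited splicing tables, and made up 10 of the 262 genes and 15 of the 306 events listed. These levels are therefore given as a description with no test. The 10 are not all such genes. Ccnl1, Hnrnpf, Rbm10 and Snrpc in NPC and the decay factor Upf3b in MEF also had listed events, given below. The expression tables and the gene annotation were not criteria in choosing the 10 genes, though earlier results of these data were known.

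RNA was sequenced from cells labelled Prmt5 F/FER, of mixed C57BL/6 X 129S1/SvlmJ background, in which 4-hydroxytamoxifen (4-OHT) is given to remove Prmt5. Prmt5 is an arginine methyltransferase that modifies spliceosomal Sm proteins. The 4 groups of 3 libraries were neural progenitor cells (NPC) given 4-OHT, NPC given ethanol, mouse embryonic fibroblasts (MEF) given 4-OHT and MEF given ethanol. Agents were given for 24 h, with 4-OHT at 50 nM. The NPC were cortical cells of E14.5 embryos grown as neurospheres with EGF and FGF and treated on day 4, and the MEF were passage 1 cells of E14.5 embryos. Every group had this genotype, so 4-OHT itself and loss of Prmt5 cannot be told apart here. The labels do not say whether the replicates came from separate embryos or cultures. In the authors' deposited tables Prmt5 was 4.92 RPKM (reads scaled to transcript length and library size) in 4-OHT NPC and 33.4 RPKM in ethanol NPC, and 3.76 RPKM in 4-OHT MEF and 20.96 RPKM in ethanol MEF.

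The splicing tables set 1 library given 4-OHT against 1 given ethanol in each of 3 pairs per cell type. They list an event for a pair when the MATS p-value was under 0.05 and the inclusion levels differed by more than 0.2, and they keep events met in 2 or 3 pairs. The inclusion level is the share of transcripts that carry a segment, estimated from reads that include it and reads that join across it, with a correction for the segment's length. Inclusion and exclusion reads for these genes ranged from 14 to 7183 per library, with a median of 146. The smallest difference of any of the 10 genes was 0.203, and events below the threshold were not analysed here. The p-values are unadjusted and compare the reads of 2 libraries. In bulk RNA, fewer cells with a form and less of that form per cell cannot be told apart.

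Splicing regulators commonly control their own amount through splicing. Many of their genes carry a cassette exon, known as a poison exon, or a retained intron that brings a stop codon into the reading frame upstream of later exon junctions. A stop codon far upstream of the last junction is a known trigger of nonsense-mediated decay, in which the RNA is degraded during translation. SR proteins bind exon sequences and promote exon recognition, CLK kinases phosphorylate them and release them from nuclear speckles, and U1 snRNP with its partners recognises the 5′ splice site.

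The segments below show where reading frames of 6 events end. Each sequence runs 5′ to 3′ on the transcript strand from the first base of the alternative segment to its first in-frame stop codon, which is in capitals, and comes from GENCODE M21 transcripts (GRCm38) whose exons matched the listed event in length and spacing.
Srsf3 cassette exon: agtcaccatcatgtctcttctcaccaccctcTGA
Ccnl2 cassette exon: ggtagcctctgagggtaagTGA
Luc7l3 cassette exon: cgttggtgttgtgagcggcccaTGA
Tia1 cassette exon: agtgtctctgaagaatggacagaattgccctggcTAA
Clk2 retained intron: gtacaagccaaatcgtaacaatcctaTAG
Prpf40b retained intron: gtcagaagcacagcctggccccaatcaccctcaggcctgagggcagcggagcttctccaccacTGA

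In 3 cassette exons no stop codon was read within the exon itself, and these are given whole. The Luc7l exon shifts the reading frame, the Clk4 exon belongs to transcripts that end at the same stop without it, and the Ptbp1 exon adds codons in frame.
Luc7l cassette exon: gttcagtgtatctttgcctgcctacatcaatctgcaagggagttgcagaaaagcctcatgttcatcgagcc
Clk4 cassette exon: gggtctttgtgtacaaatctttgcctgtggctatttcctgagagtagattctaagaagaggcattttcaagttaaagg
Ptbp1 cassette exon: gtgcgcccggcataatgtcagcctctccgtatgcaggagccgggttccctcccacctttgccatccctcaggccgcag

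In NPC, 9 of the 10 genes had 14 events, and 13 of the 14 had higher inclusion with 4-OHT. The share over all 255 NPC events was 62%. These counts take overlapping events of Ccnl2 and of Luc7l separately, and they include the U2af1l4 event, which is uncertain as described below. By class, inclusion was higher with 4-OHT for 6 of 6 cassette exons of these genes, against 37.8% of all 135 cassette exons listed. It was also higher for 4 of 4 retained introns (96.3% of all 82), 2 of 2 alternative 5′ sites (70% of 20) and 1 of 1 alternative 3′ site (83.3% of 12). The remaining event was a pair of mutually exclusive exons in Tia1, a class in which 66.7% of 6 events were higher. Within every one of the 14 events the listed 4-OHT and ethanol libraries did not overlap, which the listing rule makes common: it held for 100% of all NPC events. Of the 14 events, 4 were listed in 3 of 3 pairs, against 23.1% of all NPC events.

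**Figure D1:**
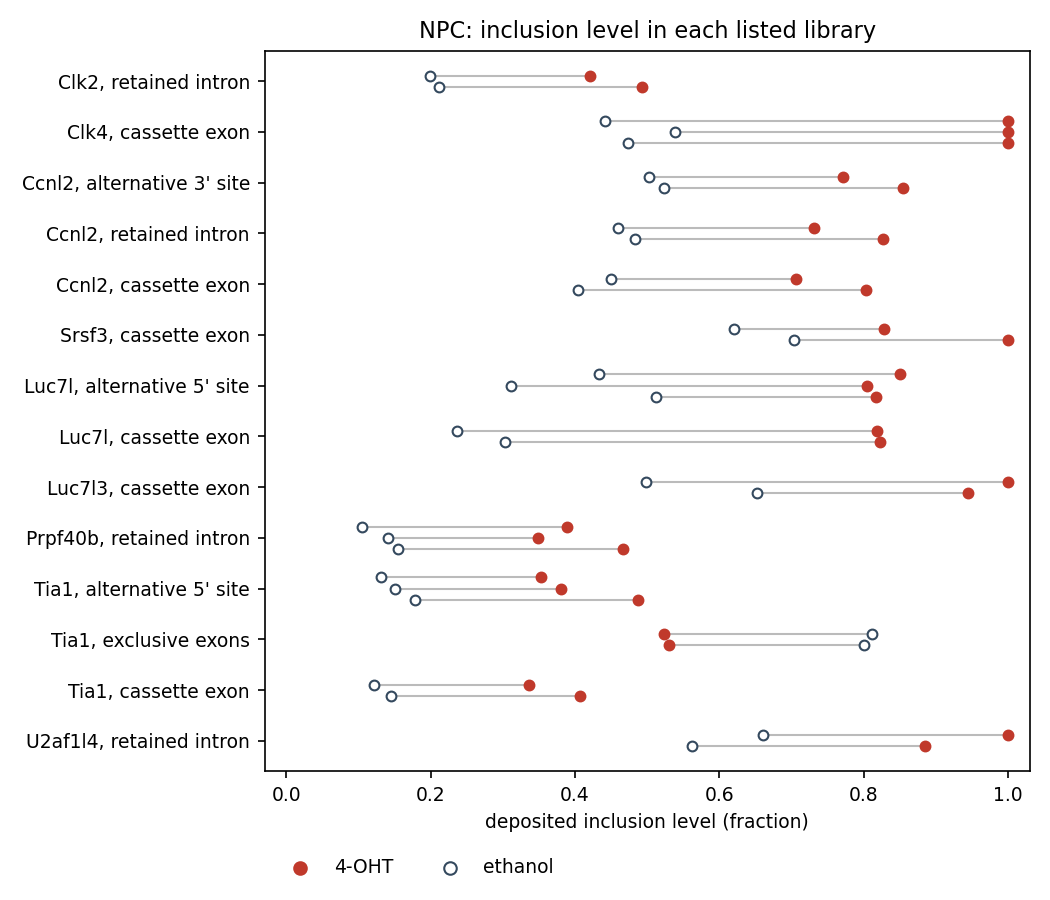
Deposited inclusion level (fraction, x axis) of each of the 14 NPC events (rows), with a filled point for each listed 4-OHT library, an open point for its paired ethanol library and a line joining the pair. The 4-OHT libraries lie to the right in 13 rows, and to the left in the row of the mutually exclusive Tia1 exons.

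Clk2, a kinase that phosphorylates SR proteins, kept an intron of 346 bases more often with 4-OHT (mm9 chr3:88973625-88973970, plus strand, ENSMUSG00000068917). The inclusion level was 0.421 and 0.493 in the 4-OHT libraries and 0.199 and 0.212 in the paired ethanol libraries. The means were 0.457 ± 0.051 with 4-OHT and 0.206 ± 0.009 with ethanol (SD, n = 2 listed pairs). Behind these levels stood 521 and 547 inclusion reads with 70 and 55 exclusion reads in 4-OHT NPC, against 246 and 154 with 97 and 56 in ethanol NPC. The ratio of inclusion to exclusion reads, which needs no length correction, was 2.93-fold higher with 4-OHT in one pair (95% exact counting interval 2.05 to 4.20) and 3.62-fold higher in the other (2.34 to 5.58). This is intron 4 of a coding transcript of 13 exons, and its stop codon starts at base 27 of the intron. The reading frame ended after 171 codons with the intron, against 500 without it.

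Clk4, a second kinase of the family, included a 78-base exon in every read counted with 4-OHT (mm9 chr11:51082271-51082348, plus strand, ENSMUSG00000020385). The level was 1 in all 3 listed 4-OHT libraries, against 0.442, 0.539 and 0.474 in ethanol. These levels rest on few reads, with 17, 23 and 22 inclusion and 0 exclusion reads with 4-OHT, against 11, 13 and 10 inclusion reads and 5, 4 and 4 exclusion reads with ethanol. A count of 0 allows an exclusion share of up to 17.6%, 13.04% and 13.6% in the 4-OHT libraries (3 reads of the total). Exclusion reads made up 11.0 to 58.7%, 6.81 to 49.9% and 8.39 to 58.1% of the ethanol reads by exact binomial 95% intervals. In the annotation the exon occurs in 2 transcripts marked as decay targets, and no coding transcript joins the flanking exons or holds this one. The form without it is itself marked as a decay target. The 78 bases keep the frame and hold no in-frame stop, so both forms end at the same stop codon, after 105 codons with the exon and 79 without it.

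Ccnl2 encodes cyclin L2, a partner of CDK11 found in nuclear speckles. Its 3 events overlap in 1 intron and share their exclusion reads, so they are 3 readings of 1 stretch and not independent (ENSMUSG00000029068, plus strand). The cassette exon of 126 bases (mm9 chr4:155192648-155192773) had levels of 0.706 and 0.803 with 4-OHT, against 0.450 and 0.404 with ethanol. Exclusion reads were 40 and 16 in the 4-OHT libraries and 69 and 42 in the ethanol libraries, beside 395 and 268 inclusion reads with 4-OHT and 232 and 117 with ethanol. With 4-OHT the read ratio was 2.94-fold higher in one pair (1.89 to 4.60) and 6.01-fold higher in the other (3.15 to 11.9).

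The same Ccnl2 stretch was also listed as a later exon's extension of 1790 bases through an upstream 3′ site (mm9 chr4:155192648-155194437) and as retention of the whole 2341-base intron (mm9 chr4:155192097-155194437). The extension had levels of 0.771 and 0.854 with 4-OHT and 0.502 and 0.523 with ethanol. The retained intron had levels of 0.731 and 0.827 with 4-OHT and 0.459 and 0.483 with ethanol. All these forms stop early: after 224 codons with the cassette exon or the extension and after 218 with the intron, against 518 in the coding transcript. The intron's stop codon starts at its base 2, and that of the exon at base 20.

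Srsf3, an SR protein known to control its own RNA through a poison exon, included a 456-base exon annotated for decay more with 4-OHT (mm9 chr17:29176399-29176854, plus strand, ENSMUSG00000071172). The level was 0.828 and 1 in the 4-OHT libraries and 0.621 and 0.704 in ethanol. The means were 0.914 ± 0.122 with 4-OHT and 0.663 ± 0.059 with ethanol (SD, n = 2). Exclusion reads numbered 29 and 0 with 4-OHT, against 73 and 35 with ethanol, while inclusion reads numbered 2061 and 1458 with 4-OHT and 1768 and 1234 with ethanol. The read ratio was 2.93-fold higher with 4-OHT in one pair (1.87 to 4.70) and had a lower exact 95% limit of 10.6-fold in the other, which has no exclusion reads with 4-OHT. Both annotated transcripts that hold the exon are marked as decay targets. Its TGA starts at base 32, which leaves 124 codons, against 164 in the coding transcript, and lies 548 bases before the last exon junction.

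Luc7l, one of the U1-associated LUC7 family proteins that help to choose 5′ splice sites, had 2 overlapping events in its first intron (ENSMUSG00000024188, chr17, plus strand). The first was an extension of 1297 bases at a downstream 5′ site (mm9 chr17:26390037-26391333). It reached 0.850, 0.804 and 0.817 in the 3 4-OHT libraries, against 0.434, 0.311 and 0.512 in the ethanol libraries. The means were 0.824 ± 0.024 with 4-OHT and 0.419 ± 0.101 with ethanol (SD, n = 3). Exclusion reads were 3, 10 and 7 with 4-OHT and 15, 48 and 14 with ethanol, and the read ratio was 7.38-fold (2.06 to 39.9), 9.09-fold (4.51 to 20.2) and 4.25-fold (1.59 to 12.5) higher with 4-OHT.

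The second Luc7l event was a 71-base cassette exon inside the extension (mm9 chr17:26390919-26390989), so the pair of events shares reads. Its level was 0.819 and 0.823 with 4-OHT and 0.236 and 0.303 with ethanol. Inclusion reads were 35 and 120 with 4-OHT, against 12 and 54 with ethanol. The read ratio was 14.6-fold higher with 4-OHT in one pair (3.18 to 87.7) and 10.7-fold higher in the other (4.83 to 25.2). The mean difference placed this exon at 16 of the 51 NPC cassette exons with higher inclusion, the highest place among the 6 of these genes. Its length shifts the frame, and the reading frame ended after 79 codons, against 371 in the coding transcript. With the extension it ended after 70 codons.

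Luc7l3, another LUC7 family member and an SR-rich protein, included a 79-base exon in nearly all reads with 4-OHT (mm9 chr11:94153708-94153786, minus strand, ENSMUSG00000020863). The level was 1 and 0.945 with 4-OHT and 0.499 and 0.652 with ethanol. Exclusion reads were 0 and 1 in the 4-OHT libraries, against 19 and 8 in the ethanol libraries. The read ratio, 4-OHT over ethanol, had a lower exact 95% limit of 5.33-fold in the first pair and was 9.14-fold higher in the second, where the single exclusion read gives an interval of 1.13 to 414. A coding transcript model carries a shorter 66-base version of this exon. The stop codon comes late in the protein, after 469 codons against 477, and lies 54 bases before the last junction, the shortest such distance among the events followed.

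Prpf40b is a mammalian counterpart of the yeast U1 snRNP protein Prp40, which bridges the 2 ends of the intron. Retention of its 210-base intron (mm9 chr15:99145412-99145621, plus strand, ENSMUSG00000023007) had levels of 0.389, 0.349 and 0.466 with 4-OHT and 0.105, 0.141 and 0.155 with ethanol. The means were 0.401 ± 0.059 with 4-OHT and 0.134 ± 0.026 with ethanol (SD, n = 3). Inclusion and exclusion reads were 37 and 9, 131 and 38, and 90 and 16 in the 4-OHT libraries, against 22 and 29, 54 and 51, and 32 and 27 in the ethanol libraries. The read ratio was 5.42-fold (2.0 to 15.3), 3.26-fold (1.86 to 5.70) and 4.75-fold (2.13 to 10.7) higher with 4-OHT. This is intron 20 of a 26-exon transcript, and the frame ended after 673 codons with it, against 873 without it.

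Tia1, an RNA-binding protein that binds U-rich sequence beside 5′ splice sites and helps recruit U1, had the most places of change, at 3 separate positions (ENSMUSG00000071337, chr6, plus strand). At the first, 2 exons are used one instead of the other: a 33-base exon of the coding transcripts (mm9 chr6:86369095-86369127) and a 119-base exon (mm9 chr6:86369688-86369806) annotated in a decay transcript. Use of the 33-base exon was 0.523 and 0.530 in the 4-OHT NPC libraries and 0.811 and 0.800 in the ethanol libraries. Reads for the 33-base exon were 32 and 50 with 4-OHT and 73 and 108 with ethanol, and reads for the 119-base exon were 79 and 120 with 4-OHT and 46 and 73 with ethanol. The ratio of 33-base to 119-base reads was 0.255 (0.141 to 0.459) and 0.282 (0.176 to 0.449) times that with ethanol. Thus the 1 NPC event of these genes with lower inclusion was one in which the longer exon, whose stop codon starts at its base 3, gained share.

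At the second position of Tia1, a 66-base cassette exon (mm9 chr6:86373600-86373665) had levels of 0.337 and 0.407 with 4-OHT and 0.121 and 0.145 with ethanol. Reads gave a ratio 3.69-fold (1.94 to 7.03) and 4.04-fold (2.48 to 6.58) higher with 4-OHT. The exon keeps the frame by length yet holds a TAA at base 35.

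At the third, an exon was extended by 133 bases through a downstream 5′ site. This extension had levels of 0.353, 0.380 and 0.488 with 4-OHT and 0.131, 0.151 and 0.178 with ethanol. The means were 0.407 ± 0.071 with 4-OHT and 0.153 ± 0.024 with ethanol (SD, n = 3). The read ratio was 3.62-fold (2.18 to 5.99), 3.45-fold (2.46 to 4.82) and 4.40-fold (2.97 to 6.53) higher with 4-OHT. The reading frame of 386 codons ended after 93, 144 and 212 codons with the 119-base exon, the cassette exon and the extension, in that order.

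U2af1l4 encodes a relative of the small U2AF subunit, which contacts the AG at the 3′ splice site. The listed 206-base intron (mm9 chr7:31351956-31352161, plus strand, ENSMUSG00000078765) had levels of 1 and 0.885 with 4-OHT and 0.661 and 0.562 with ethanol. Exclusion reads were 0 and 4 with 4-OHT and 3 and 8 with ethanol, and the read ratio had a lower exact 95% limit of 1.01-fold in one pair and was 6.00-fold (1.53 to 27.9) higher with 4-OHT in the other. This event is uncertain. Of 12 coding transcripts, 11 have an exon inside the span, and an exon of an overlapping gene (ENSMUSG00000109378) lies there too, so an inclusion read need not come from a retained intron. Its frame was not followed.

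**Figure D2:**
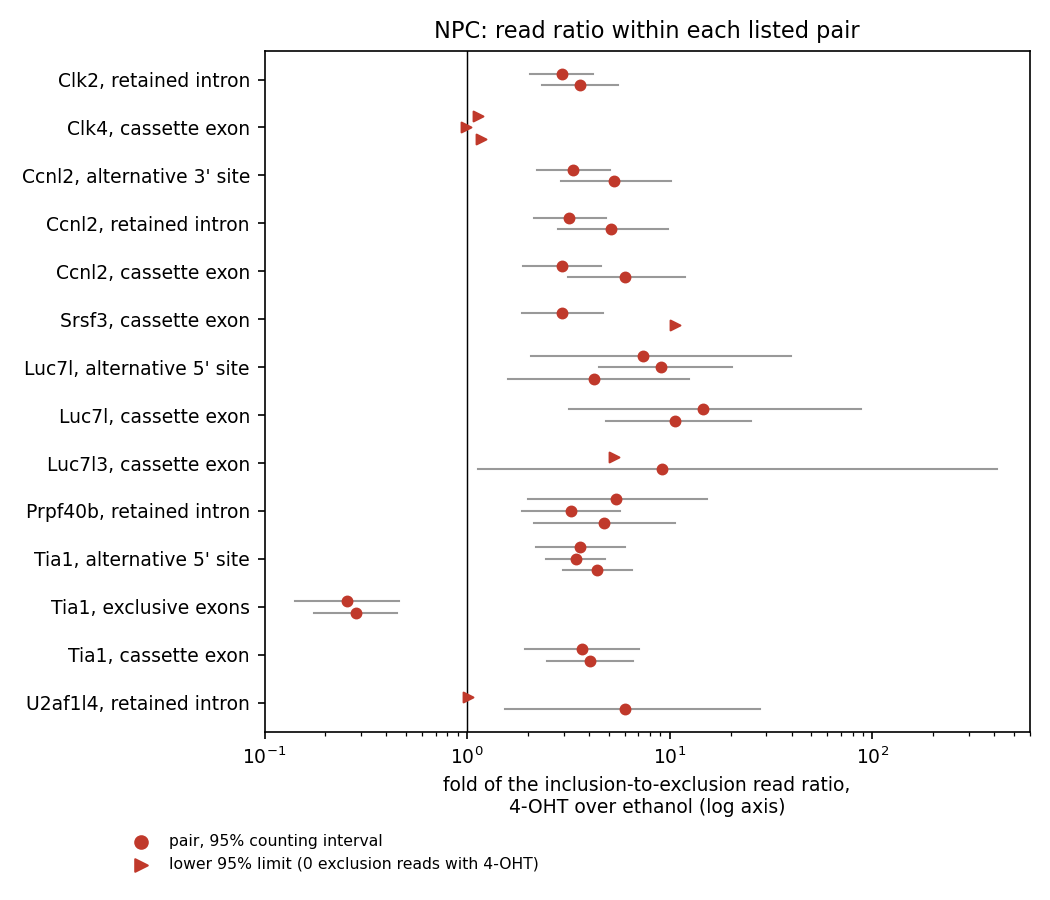
Fold of the inclusion-to-exclusion read ratio, 4-OHT over ethanol (x axis, log scale), for each listed pair of the 14 NPC events (rows). Points carry 95% counting intervals and triangles are lower 95% limits for pairs with 0 exclusion reads with 4-OHT. The 2 pairs of the Tia1 exclusive exons lie below 1, as does 1 Clk4 limit at 0.982, and the other points and limits lie above it.

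The intervals and limits cover counting error only, since reads without molecular identifiers are not independent molecules. For Clk4 the exact interval of the read ratio, 4-OHT over ethanol, reached down to 1.13, 0.982 and 1.18, so in 1 of its 3 pairs it included 1. The deposited MATS p-values of that exon were 0.0229, 0.0343 and 0.0226. The others nearest to the threshold were 0.0454 for U2af1l4 and 0.0413 for Luc7l3.

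The mean differences also had these places among listed events of the same class and direction. Among the 51 cassette exons with higher inclusion in 4-OHT NPC, ordered by mean difference, Clk4 was at place 18, Luc7l3 at 25, Ccnl2 at 29, Srsf3 at 44 and the Tia1 exon at 47. Among the 79 retained introns with higher inclusion, U2af1l4 was at place 41, Ccnl2 at 49, Prpf40b at 61 and Clk2 at 66. The Luc7l extension was at 4 and the Tia1 extension at 10 of 14 alternative 5′ sites, the Ccnl2 extension at 3 of 10 alternative 3′ sites and the Tia1 exclusive exons at 2 of 2 with lower inclusion.

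The reading frame was not used in choosing the genes. The segment of 14 of the 15 events was found in an annotated transcript, the U2af1l4 intron being in none. In 13 of these 14 the segment, which had the higher share in 4-OHT cells, is in no protein-coding transcript, and the exception, the Ptbp1 exon of MEF, is a coding exon with a lower share. Overlapping events of Ccnl2 and of Luc7l count separately here. The retained introns of Ccnl2, Clk2 and Prpf40b and the Ccnl2 and Luc7l extensions were found only in retained-intron transcripts, which are not coding. Beyond cassette exons this was not read in other genes, so the 13 has no share over all listed events beside it. The frame could be followed in 14 events, all but U2af1l4. In 12 events of 7 genes the form with the higher share in 4-OHT cells ended early, and in 11 of them the stop codon was within the segment itself. Since events of Ccnl2 and of Luc7l overlap, these 12 are 9 separate stretches. The frame was not followed in other genes, so no share over all listed events stands beside this count. These stop codons were 54 to 2886 bases upstream of the last exon junction.

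**Figure D3:**
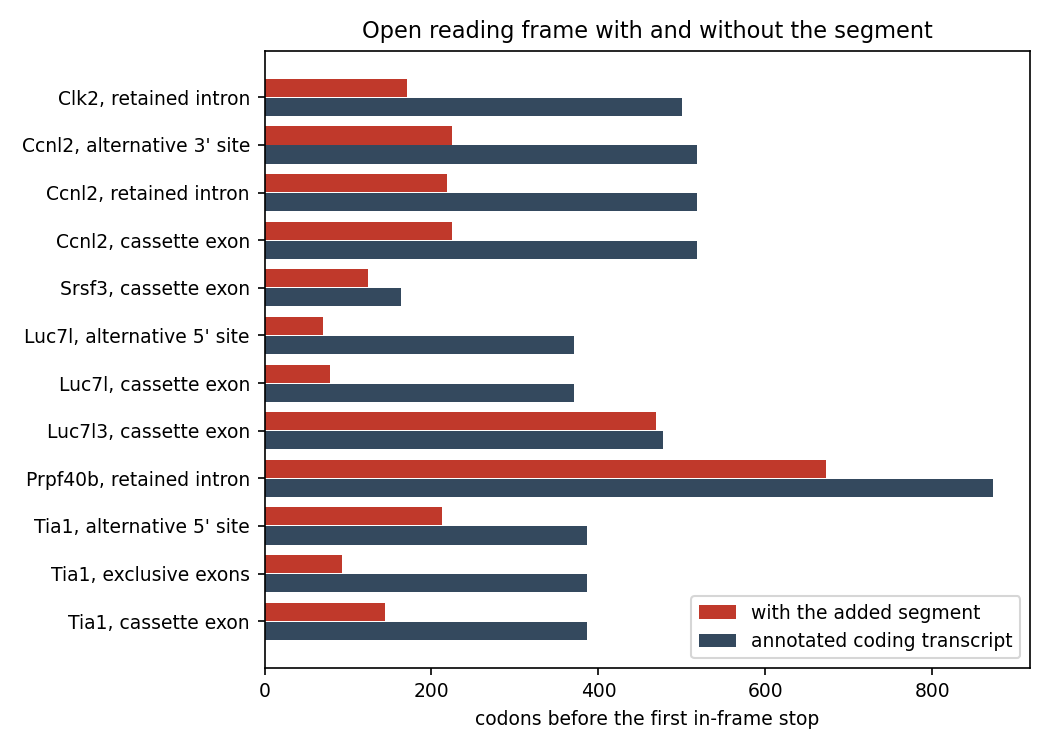
Codons before the first in-frame stop (x axis) for the 12 events that end early, with the segment on top (red) and in the annotated coding transcript beneath it (blue), by GENCODE M21. The segment-bearing form is shorter in every row, from 469 codons against 477 in Luc7l3 to 70 against 371 in Luc7l.

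The same annotation was read for every cassette exon listed in either cell type. In NPC, 14 exons were in transcripts marked as decay targets and in no coding transcript. Of these 14, 12 had higher inclusion with 4-OHT (85.7%). The 6 exons of Srsf3, Ccnl2, Clk4, Luc7l, Luc7l3 and Tia1 are among these 12. For Clk4 the form without the exon is also marked as a decay target. Without them, 6 of 8 such exons were higher (75%). These 8 are exons of 7 genes, since 2 are overlapping exons of Tmem234, both higher. Of 113 exons present in a coding transcript, 34 were higher with 4-OHT (30.1%), and of 6 exons in other non-coding transcripts 5 were higher (83.3%). The 113 are exons of 102 genes, and the 6 are exons of 5 genes, since 2 are overlapping exons of Rer1, both higher. The remaining 2 exons matched no annotated exon. In MEF, 1 of 3 exons in decay transcripts and no coding one was higher (33.3%), the Tia1 exon, and 0 of 2 without it. Of 27 MEF exons present in a coding transcript 6 were higher (22.2%), and of 2 in other non-coding transcripts 0. These shares are a description of listed exons, and no test was made of them.

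**Figure D4:**
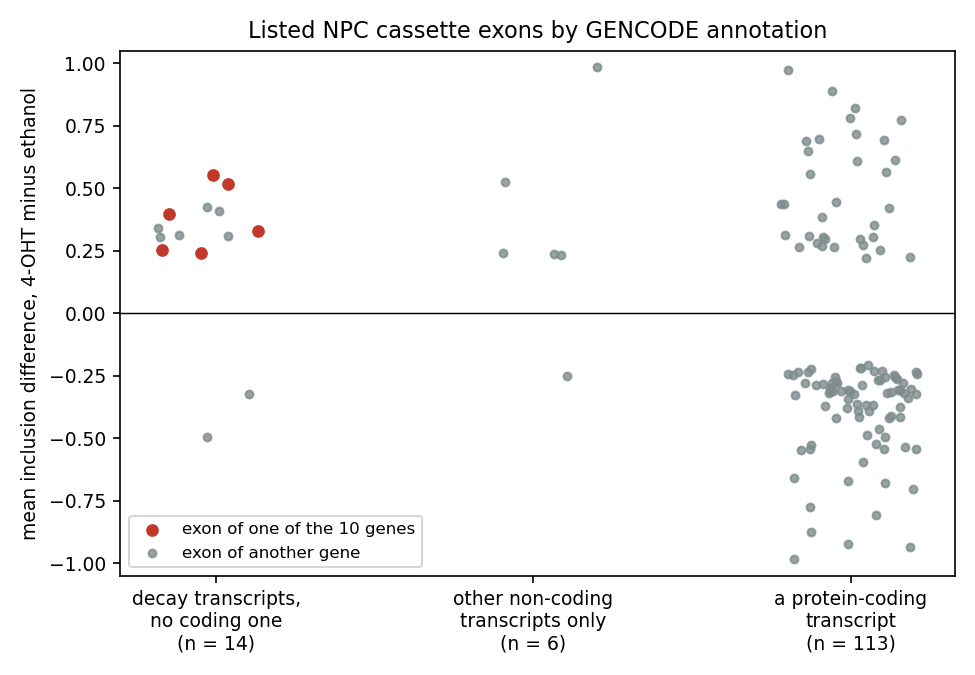
Mean inclusion difference, 4-OHT minus ethanol (y axis, fraction), of each listed NPC cassette exon matched to GENCODE M21, by the transcripts that hold it (x axis, points spread sideways for visibility). Exons of the 10 genes are red and lie above 0 in the decay group, where 12 of 14 exons are above 0, against 34 of 113 in the coding group.

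The retained introns were also read at their 5′ splice sites. Each site was compared over 9 positions with the consensus CAGGTAAGT on the transcript strand. The Clk2 site, gatGTacaa, shared 4 of 9 bases, the Prpf40b site, gagGTcaga, shared 6 and the Ccnl2 site, atgGTgagt, shared 6 (the GT that opens the intron is in capitals). Over the 66 retained introns with higher inclusion in 4-OHT NPC whose site could be read, the median was 5 and 59.1% shared 5 or fewer. Over 8648 introns kept in annotated retained-intron transcripts the median was 6 and 27.5% shared 5 or fewer. Of the 3 introns read here, the Clk2 intron was thus below both medians and the others were above the median of the NPC introns and at that of the annotated introns.

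In MEF, 2 of the 10 genes had 3 events, and 1 of these 3 had higher inclusion with 4-OHT, against 50.7% of all 71 MEF events. None of the 3 was listed in all 3 pairs, against 12.7% of all MEF events. The listed libraries did not overlap in any of the 3 events, as in 98.6% of all MEF events. For cassette exons the count was 1 of 2, against 21.9% of 32, and for mutually exclusive exons 0 of 1, against 33.3% of 6. Both Tia1 events were the same segments as in NPC, and were among 20 events listed in both cell types.

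The Tia1 cassette exon had levels of 0.384 and 0.269 in 4-OHT MEF and 0.105 and 0.066 in ethanol MEF. Reads in MEF gave a ratio 5.28-fold (2.33 to 12.1) and 5.25-fold (1.78 to 17.4) higher with 4-OHT, from 35 and 27 inclusion reads in 4-OHT MEF and 17 and 6 in ethanol MEF. Use of the 33-base Tia1 exon was 0.641 and 0.634 in 4-OHT MEF and 0.891 and 0.869 in ethanol MEF. Both events thus had the direction seen in NPC, with 4-OHT and ethanol libraries apart in each pair, and whether their size differed between cell types was not tested.

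Ptbp1, a repressor that binds pyrimidine-rich RNA and holds back neuronal exons in non-neuronal cells, had the opposite kind of event. Its 78-base exon (mm9 chr10:79322862-79322939, plus strand, ENSMUSG00000006498) codes in frame for part of the linker between RNA-binding domains, and the isoform without it is known as the weaker repressor. The inclusion level was 0.122 and 0.188 in 4-OHT MEF, against 0.647 and 1 in ethanol MEF. The means were 0.155 ± 0.047 with 4-OHT and 0.824 ± 0.250 with ethanol (SD, n = 2). Inclusion reads were 29 and 36 with 75 and 56 exclusion reads in 4-OHT MEF, against 265 and 19 with 52 and 0 in ethanol MEF. The read ratio with 4-OHT was 0.0759 times that with ethanol in one pair (0.0434 to 0.132) and had an upper exact 95% limit of 0.151 times in the other, which has no exclusion reads with ethanol. By mean difference it was at place 5 of the 25 MEF cassette exons with lower inclusion. The coding transcript with the exon encodes 555 amino acids and that without it 529. The exon was not listed in NPC.

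**Figure D5:**
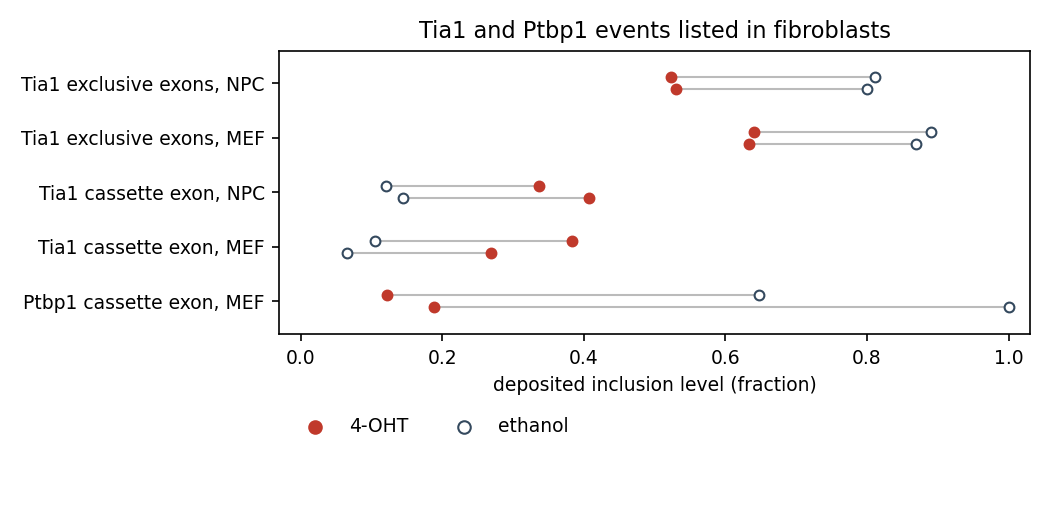
Deposited inclusion level (fraction, x axis) of the Tia1 and Ptbp1 events listed in MEF, with the Tia1 events of NPC beside them (rows), filled points for 4-OHT libraries, open points for ethanol libraries and a line joining each pair. Tia1 points lie on the same side in both cell types, and Ptbp1 is at 0.122 and 0.188 with 4-OHT against 0.647 and 1 with ethanol.

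Expression was not a criterion in choosing the genes, but it comes from the same libraries, and earlier results of these data were known. The deposited expression tables hold 1 value per arm and list some genes only, so a gene not listed has no value here. In the authors' deposited table for NPC, 0 of the 9 genes with an NPC event were listed, against 14% of all 222 genes with an NPC event. The 1 of the 10 genes listed there was Ptbp1, which had no NPC event. It was at 48.4 RPKM in 4-OHT NPC and 73.9 RPKM in ethanol NPC, a deposited log2 fold change of -0.61 with a Cuffdiff p of 2.1e-05. Of the 2416 genes in that table, 43.4% were lower and 56.6% higher with 4-OHT. In the authors' deposited table for MEF, 0 of the 10 genes were listed. Thus 0 of the 2 genes with a MEF event were listed, against 3.33% of all 60 genes with a MEF event. The 9 genes with NPC events were thus not among the genes listed for NPC expression.

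Beyond these genes, 129 other splicing regulators and decay factors were looked up in 7 lists. In the authors' deposited table for NPC, 10 of the 129 were listed, 5 higher and 5 lower with 4-OHT, and 0 were listed in MEF. Among SR proteins 0 of 20 were listed, among U1 and 5′ site factors 0 of 10 and among 3′ site factors 0 of 9. Among SR-protein kinases and their cyclin partners 2 of 13 were listed. In the authors' deposited table Dyrk1b, a dual-specificity kinase, was 4.37 RPKM with 4-OHT and 2.56 RPKM with ethanol, and Srpk3, an SR-protein kinase, was 0.472 RPKM with 4-OHT and 0.749 RPKM with ethanol. Among PTB and hnRNP proteins 1 of 29 was listed, Raly, at 99.96 RPKM with 4-OHT and 156.8 RPKM with ethanol in the authors' deposited table.

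Of 32 tissue-enriched regulators 6 were listed, 4 higher and 2 lower. The table holds listed genes only, so the share of all genes listed is not known and the lists were not compared with one another. The authors' deposited table gave Celf5, an RNA-binding protein enriched in brain, as 3.78 RPKM with 4-OHT and 1.04 RPKM with ethanol, and its relative Celf3 as 0.686 RPKM with 4-OHT and 0.400 RPKM with ethanol. It gave Elavl2, a neuronal protein that binds AU-rich RNA, as 3.03 RPKM with 4-OHT and 6.24 RPKM with ethanol. Mbnl3, a muscleblind protein, was low in both arms of the authors' deposited table, at 0.042 RPKM with 4-OHT and 0.101 RPKM with ethanol. Among decay factors 1 of 16 was listed, the exon junction protein Rbm8a, at 11.0 RPKM with 4-OHT and 16.7 RPKM with ethanol in the authors' deposited table.

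Of the 129, 4 had an NPC event. Ccnl1, the close relative of Ccnl2, extended an exon by 74 bases (mm9 chr3:65759052-65759125, minus strand), with levels of 0.606 and 0.472 with 4-OHT and 0.273 and 0.180 with ethanol. Hnrnpf, which binds G-rich RNA, had a 5′ site extension at 1 and 1 with 4-OHT and 0.544 and 0.603 with ethanol. Rbm10, an exon repressor, had a cassette exon at 1 and 1 with 4-OHT and 0.066 and 0.153 with ethanol, from 9 and 17 reads with 4-OHT. Snrpc, the U1 C protein, had the opposite direction, with intron retention at 0.026 and 0.015 with 4-OHT and 1 and 1 with ethanol. Its exclusion reads were 47 and 47 with 4-OHT and 0 and 0 with ethanol. Its inclusion reads were not fewer with 4-OHT, at 62 and 36 against 33 and 27 with ethanol. The lower level thus reflects the exclusion reads, and the levels of 1 rest on counts of 0. In MEF the decay factor Upf3b had a cassette exon at 0.153 and 0.032 with 4-OHT and 0.529 and 0.247 with ethanol.

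Markers of other cell types moved in the same NPC comparison. Of 9 glial markers, 6 were listed in the authors' deposited table, all higher, with a summed level of 25.2 RPKM with 4-OHT and 8.80 RPKM with ethanol. Of 8 neuronal markers 3 were listed higher and 1 lower (11.1 RPKM with 4-OHT and 6.49 RPKM with ethanol, summed, in the authors' deposited table). Of 12 progenitor markers 1 was listed, Hes5, at 4.77 RPKM with 4-OHT and 15.8 RPKM with ethanol. Of 6 endothelial markers 2 were listed (0.258 RPKM with 4-OHT and 0.146 RPKM with ethanol, summed) and of 7 blood markers 1 (1.12 RPKM with 4-OHT and 0.569 RPKM with ethanol), while 0 of 12 fibroblast markers were listed. In MEF 0 of the 54 markers were listed. Markers not listed have no value here, so the labelled cell types could not be checked further, and the part of the listed markers in the splicing values was not tested.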

How the data were processed

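RNA libraries (TruSeq v2) were sequenced on an Illumina HiSeq. Per the submitters' processing notes, the tools were CASAVA 1.8, TopHat2 2.03, Bowtie2 2.0.0.6 and Cuffdiff 2.02 on build mm9; the MATS version is not given in the sources used here. Per the file headers, the deposited splicing tables hold inclusion and exclusion read counts per library, inclusion levels as a fraction, unadjusted p-values, and a difference score of ethanol minus 4-OHT, whose sign was turned here. The deposited expression tables hold RPKM values, a log2 fold change and p-values. Library totals were not given. Pair codes match no label.

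Read-ratio folds, exact 95% intervals and, for counts of 0, the limit of 3 reads were computed with Python 3.11.15 and SciPy 1.17.1. Simulated data were used to check only the recovery of inclusion levels from reads and the matching of cassette exons. Events were matched to GENCODE M21 (GRCm38) exons of the same gene by length and spacing, never by position; coordinates are mm9 as deposited. No test was made of the inclusion levels, since they chose the genes. The genes and lists were chosen with earlier results of these data known. All 10 genes are named. Of other regulators, at most 4 per list and cell type are named, by size of log2 fold change or inclusion difference. Alternatives were a minimum of 20 reads, stricter thresholds, pooled reads, plain read shares, single pairs left out and low-RPKM settings.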

Additional observations from a re-analysis of the deposited data

How the results depend on the processing

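The count of NPC events with higher inclusion was 13. It was 12 with at least 20 reads and 10 with p under 0.01 in every pair, but 4 with differences over 0.3 in every pair and 4 with events listed in 3 pairs; stricter listing leaves fewer events. In MEF the count of 1 became 0 under each of these 2 rules. Counted within the pairs as a block, which was chosen after seeing the data, it stayed at 13 in NPC and 1 in MEF. The mean of within-pair differences is the same number as the difference of means in these complete pairs, and neither was tested. Shares of raw reads, without length correction, moved 15 of 17 mean differences: the Ccnl2 intron gave 0.0125 in place of 0.308, and the Srsf3 exon 0.0267 in place of 0.252. They could reverse none, since share and level both rise with the read ratio and the listed pairs of an event agreed in direction. A move here is a shift of at least the SD of the within-pair differences. That rule cannot call a move when 1 of 2 or 3 listed pairs is left out, and listed pairs of an event had 1 direction. Leaving out 1 pair thus reversed 0 differences and moved 0, which was fixed in advance and is no check. The difference for Luc7l3 was then 0.293 or 0.501, and that for Ptbp1 was -0.525 or -0.812. Of the other regulators, 9 of 10 stayed listed with p under 0.01 and 7 with at least 1 RPKM. Clk4 had the library with the fewest reads, 14, and the widest closed interval was that of Luc7l3.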
